A study of Mus musculus with 4 samples.

Results

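Lysosomal genes were examined in small intestinal epithelium of mice lacking AP-1B and of heterozygous mice. AP-1B is a clathrin adaptor complex made in epithelial cells, and its mu1B subunit is the product of Ap1m2. The genes were 33 cathepsins and other proteases, glycosidases, sulfatases, lipid-handling proteins, lysosomal membrane proteins and the transcription factor gene Tfeb. They were chosen by name and by no rule on their values, though with earlier results of these data known. They were taken from 18193 genes that had a probe set of their own on the array. For each gene the probe set named for it alone with the highest mean over the 4 arrays was used. Of the 33 genes, 32 had such a probe set and 31 passed a filter on dim probe sets, which kept probe sets whose mean over all arrays reached 0.983. Cd63 had no probe set named for it alone in the annotation used here and was not analysed. Ctsf, which encodes the cysteine protease cathepsin F, was dim, with signals of 0.642 and 0.046 on the knockout arrays, against 0.067 and 0.090 on the heterozygous arrays.

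The data were 4 arrays, 2 labelled AP-1B-/- (knockout) and 2 labelled AP-1B+/- (heterozygous), each hybridised with total RNA of isolated epithelial cells. Both groups were healthy adult C57BL/6J mice, 10 weeks old, kept under specific pathogen-free conditions. The cells had been loosened in 30 mM EDTA for 20 min on ice and collected by hand. The labels do not give the part of the gene that was removed, the animals behind each array or any wild-type sample, so a p-value here reflects no more than how far the arrays lie apart, which may be technical. Signals are multiples of the array median. In bulk RNA of this kind, fewer cells of a type and less RNA per cell cannot be told apart.

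Lysosomes break down proteins, glycans and lipids with acid hydrolases, which are mostly tagged with mannose 6-phosphate in the Golgi and carried to endosomes by mannose 6-phosphate receptors. AP-1 adaptors take part in the traffic of these receptors between the trans-Golgi network and endosomes, and the AP-1B form is best known for basolateral sorting in epithelia. TFEB, a basic helix-loop-helix factor, binds the CLEAR element, an extended E-box found near many lysosomal genes. In enterocytes, lysosomes receive material taken up at the apical surface as well as membrane proteins due for turnover.

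The targeted gene did not follow the labels, which bears on every direction given here. Ap1m2 had signals of 2.49 and 22.2 on knockout 1 and knockout 2, against 19.9 and 4.33 on heterozygous 1 and heterozygous 2. Knockout 2 and heterozygous 2 thus went against their labels, and groups are called by label throughout. A probe set outside the removed part would not check the labels. Both arrays numbered 1 had low Xist (0.070 and 0.349) and high Eif2s3y (24.1 and 12.1), and both numbered 2 had the opposite, so the replicate number went with the sex pattern and each label held 1 of either. The 75th percentile of signal was 5.57 and 4.27 on knockout 1 and knockout 2, against 4.13 and 5.54 on heterozygous 1 and heterozygous 2, so values after quantile normalization are given beside the deposited ones where the order of arrays matters. Over kept probe sets, deviations from the group means on same-numbered arrays had a Pearson correlation of -0.51.

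No lysosomal gene differed between the labelled groups beyond the spread of the arrays. By limma with Benjamini-Hochberg adjustment over 22519 kept probe sets, 0 of the 31 genes passed a threshold of 0.05 (adjusted p = 0.999868 for each), and 0 of all probe sets did (0%). At an unadjusted p under 0.05 there were 0 of the 31 genes and 0.755% of all kept probe sets. The smallest unadjusted p among the 31 was 0.337, for Ctss, the only one whose difference exceeded its standard error.

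Mean log2 signals were nevertheless mostly lower for the knockout label than for the heterozygous label. Of the 31 genes, 26 had a log2 difference below 0, where 49.3% of all kept probe sets did, and the median log2 difference was -0.27, against 0.0055 over all kept probe sets. After quantile normalization 26 were again below 0, where 49.9% of all did, with a median of -0.24. Standard errors of single genes lay between 0.41 and 0.79. The array most often lowest was heterozygous 1, for 13 of the 31 genes, against 38.7% of all kept probe sets. Knockout 2 was lowest for 10 and knockout 1 for 8. After quantile normalization heterozygous 1 was lowest for 7, knockout 2 for 9 and knockout 1 for 14. The labelled groups did not overlap for 3 genes with lower values on the knockout arrays (10.7% of all kept probe sets) and 2 with higher values (6.56% of all). For 30 of the 31 genes, the gap between 2 arrays of the same label was larger than the labelled difference, as it was for 90.7% of all kept probe sets.

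This median rested on single arrays, heterozygous 2 first. Heterozygous 2 was the highest array for 25 of the 31 genes, against 35.2% of all kept probe sets, and after quantile normalization for 20 of the 31, against 19.6% of all. Without it, 8 of the 31 genes were lower on the knockout arrays and the median log2 difference was 0.22. Without knockout 2 the median was -0.018 and 18 genes were lower. Without heterozygous 1 it was -0.68, and without knockout 1 it was -0.39. These are deposited values, on which heterozygous 2 and knockout 1 were brighter (75th percentile 5.54 and 5.57, against 4.13 and 4.27). Over all kept probe sets, the median was 0.36 for knockout 1 minus heterozygous 1 and 0.03 for knockout 2 minus heterozygous 1. Medians with 1 array left out were not computed over all probe sets, so these shifts cannot be called particular to the lysosomal genes. Both heterozygous 2 and knockout 2 had Ap1m2 signals that went against their labels.

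**Figure D1:**
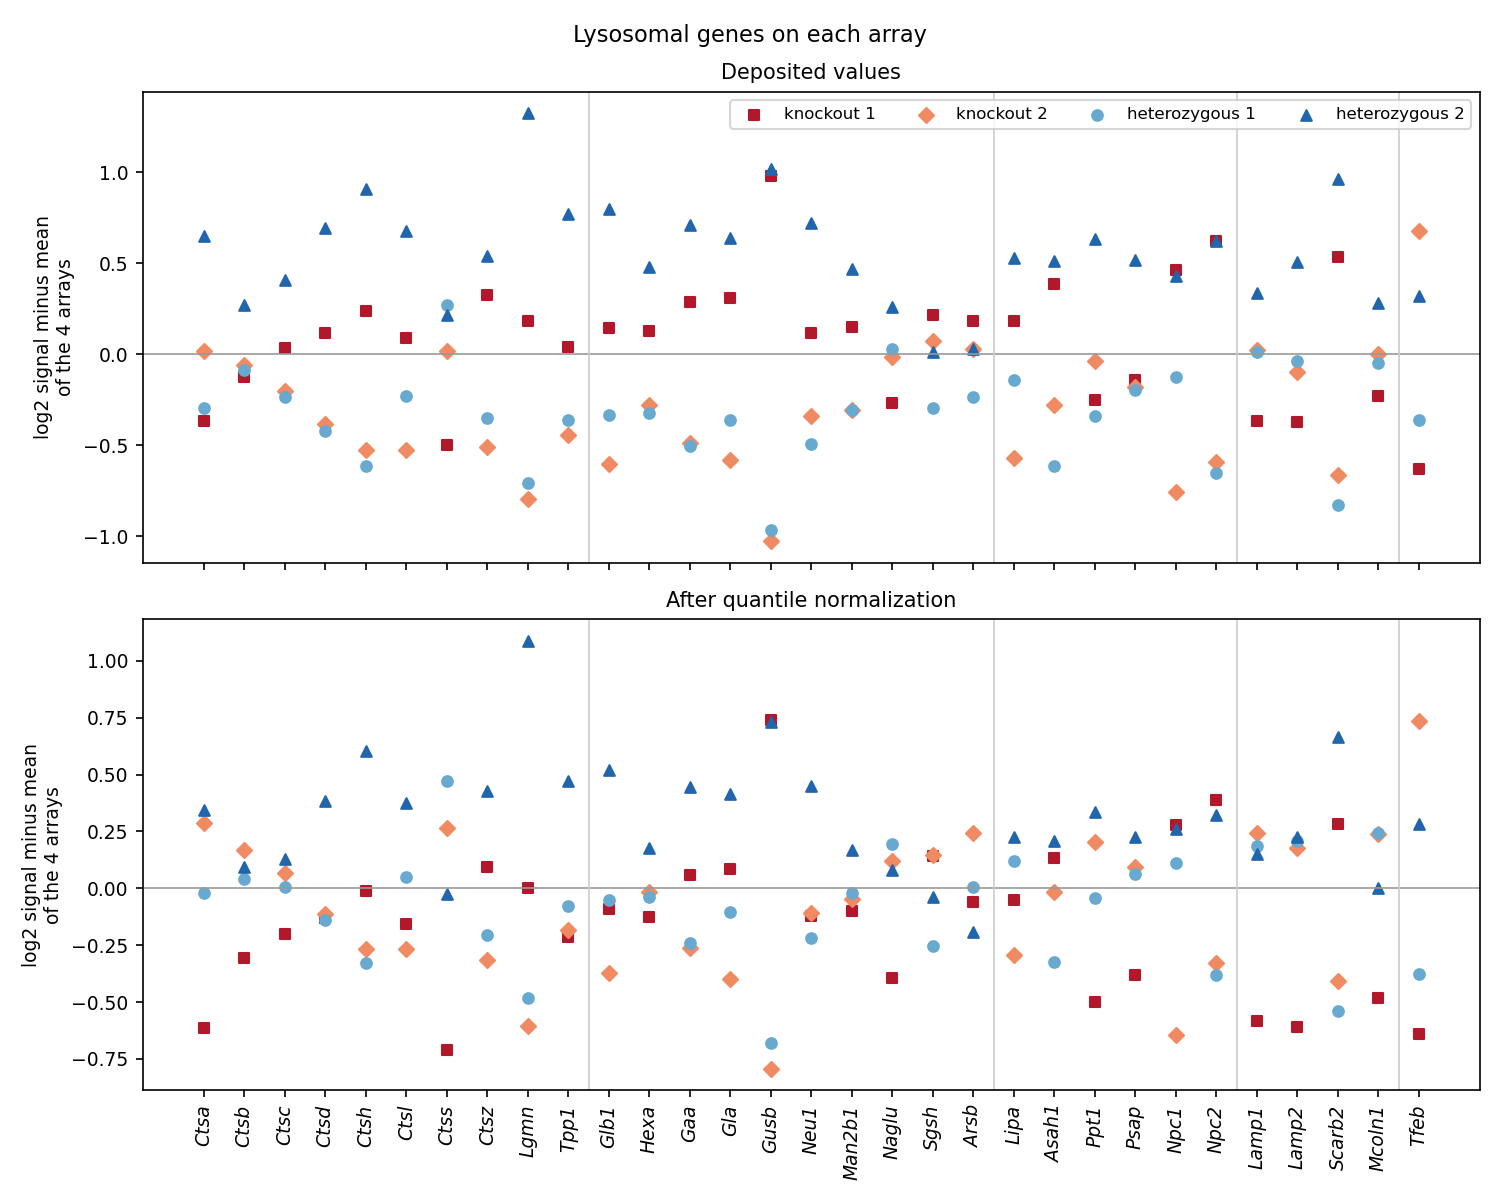
Log2 signal of 31 lysosomal genes on each array minus the mean of the 4 arrays (vertical axis), for the deposited values (top) and after quantile normalization (bottom). Genes run along the horizontal axis by role, with grey lines between roles. Heterozygous 2 is the highest array for 25 of the 31 genes in the top panel and for 20 in the bottom one.

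**Figure D2:**
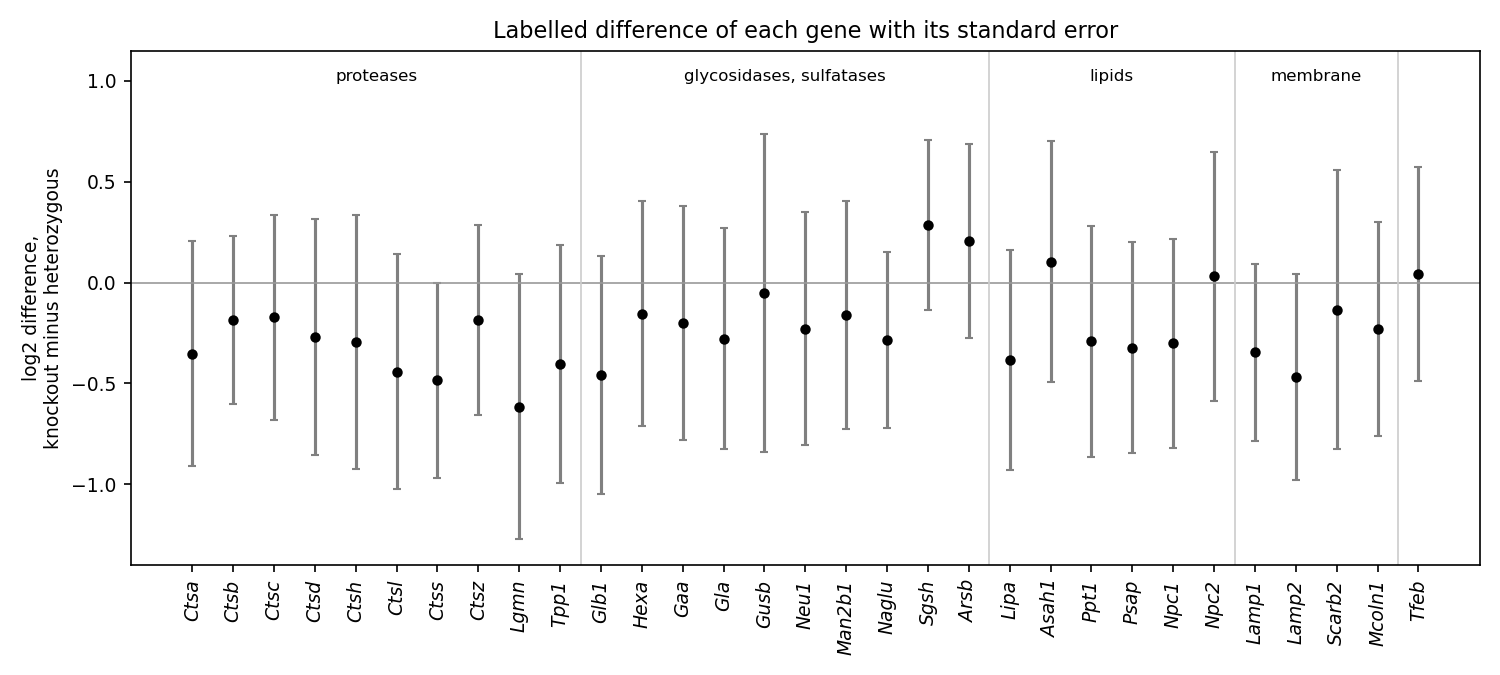
Log2 difference, knockout minus heterozygous by label, of 31 lysosomal genes (points) with limma's standard error (bars). Of the 31, 26 lie below 0, and the bar reaches or crosses 0 for all but Ctss.

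Kept protease genes had lower signals by label. All 10 had a log2 difference below 0 (median -0.32, range -0.61 to -0.17), and all 10 did so after quantile normalization (median -0.30). None passed the adjusted threshold. Lgmn, which encodes the asparaginyl endopeptidase legumain, had 7.43 and 3.62 on knockout 1 and knockout 2, against 3.87 and 16.8 on heterozygous 1 and heterozygous 2. Heterozygous 2 stood above the other 3 arrays, and the knockout arrays lay on either side of heterozygous 1. The means were 5.53 ± 2.70 for knockout and 10.3 ± 9.13 for heterozygous (SD, n = 2 each). On the log2 scale they differed by -0.61, standard error 0.66 (limma, adjusted p = 0.999868). Without heterozygous 2 the difference was 0.40.

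Ctss, the gene of cathepsin S, a cysteine protease used in antigen presentation, had 68.1 and 97.3 on the knockout arrays, against 116 and 112 on the heterozygous arrays. It was the protease gene whose labelled groups did not overlap, with means of 82.7 ± 20.6 for knockout and 114 ± 2.78 for heterozygous (SD, n = 2 each). Its log2 difference was -0.48, standard error 0.48, and with each array left out it ranged from -0.74 to -0.23. After quantile normalization the groups overlapped, at 58.9 and 116 on the knockout arrays and 134 and 94.9 on the heterozygous arrays. Myeloid markers shared its lowest array, knockout 1, and its highest, heterozygous 1, but not its high signal on heterozygous 2. Their summed signal over 14 kept genes was 42.2 and 70.5 on knockout 1 and knockout 2, against 137 and 47.7 on heterozygous 1 and heterozygous 2, and their part in the Ctss values was not tested.

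Ctsz, the gene of the carboxypeptidase cathepsin Z, had 257 and 144 on knockout 1 and knockout 2, against 160.4 and 298 on heterozygous 1 and heterozygous 2. Knockout 1 and heterozygous 2 were thus the high arrays and the groups overlapped (log2 difference -0.19, standard error 0.47). Its 2 other kept probe sets lay on the same side. Ctsh, the gene of the aminopeptidase cathepsin H, had the same upper arrays, with 50.7 and 29.7 on the knockout arrays and 28.0 and 80.8 on the heterozygous arrays. Ctsd, the gene of the aspartic protease cathepsin D, did too, at 45.7 and 32.2 against 31.4 and 68.3 in the same order of arrays.

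Ctsb, the gene of the cysteine protease cathepsin B, varied least over the arrays, with 175 and 184 on the knockout arrays and 180.2 and 231 on the heterozygous arrays. All 5 of its probe sets were kept and all had a difference below 0. The remaining protease genes lay between log2 differences of -0.44 and -0.17. They were Ctsl (cathepsin L, -0.44), Tpp1 (tripeptidyl peptidase, -0.41), Ctsa (cathepsin A, a carboxypeptidase that also protects beta-galactosidase and neuraminidase, -0.35) and Ctsc (the dipeptidyl peptidase that activates granule serine proteases, -0.17). Heterozygous 2 was the highest array for all 4. The second kept probe sets of Ctsa and Ctsc, both dimmer, lay on the other side, with differences of 0.25 and 0.05. After quantile normalization, the labelled groups of Ctsl and Tpp1 no longer overlapped, with lower values on the knockout arrays.

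Glycosidase and sulfatase genes were lower by label at 8 of 10 (median log2 difference -0.18, and -0.18 after quantile normalization), and none passed the adjusted threshold. Of these genes, Gusb, which encodes beta-glucuronidase, had the widest span over the arrays. Gusb had 41.1 and 9.99 on knockout 1 and knockout 2, against 10.4 and 42.3 on heterozygous 1 and heterozygous 2. Knockout 1 and heterozygous 2 were alike and knockout 2 and heterozygous 1 were alike, so the difference by label was near 0 (-0.05, standard error 0.79), with means of 25.5 ± 22.0 and 26.4 ± 22.5 for knockout and heterozygous (SD, n = 2 each). Knockout 1 had 3.93 times the signal of heterozygous 1, while knockout 2 had 0.236 times that of heterozygous 2. The second kept probe set of Gusb had the same upper arrays, with 8.78 and 1.85 against 2.37 and 8.10. After quantile normalization the values were 35.2 and 11.97 on the knockout arrays and 13.0 and 35.0 on the heterozygous arrays.

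Hexa, which encodes the alpha subunit of beta-hexosaminidase, had 47.6 and 35.8 on the knockout arrays and 34.8 and 60.8 on the heterozygous arrays (log2 difference -0.15, standard error 0.56). Glb1, the gene of lysosomal beta-galactosidase, had 13.1 and 7.66 against 9.27 and 20.7 in the same order. Heterozygous 2 was the highest array for both. The difference of Glb1 was -0.46 with a standard error of 0.59, the largest of the glycosidases by size. After quantile normalization its labelled groups did not overlap. Gla (alpha-galactosidase A, -0.28), Neu1 (neuraminidase, -0.23), Gaa (acid alpha-glucosidase, -0.20) and Man2b1 (alpha-mannosidase, -0.16) also had their highest signal on heterozygous 2. The second kept probe sets of Gla and Neu1, both dimmer, lay on the other side, at 0.14 and 0.26.

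Of the enzymes of glycosaminoglycan breakdown, Naglu and Sgsh, both of the heparan sulfate pathway, lay on opposite sides. Naglu, an N-acetylglucosaminidase, had 3.07 and 3.71 on the knockout arrays, against 3.83 and 4.57 on the heterozygous arrays, with no overlap (log2 difference -0.28, standard error 0.43). After quantile normalization its groups overlapped. Sgsh, a sulfamidase, had 2.50 and 2.24 on the knockout arrays, against 1.66 and 2.14 on the heterozygous arrays, also with no overlap (0.29, standard error 0.42). The second kept probe set of Sgsh lay on the other side, with a difference of -0.14. Arsb, the sulfatase of dermatan and chondroitin sulfate, had 7.87 and 7.05 on the knockout arrays, against 5.83 and 7.05 on the heterozygous arrays. The groups all but touched, its second kept probe set had a difference of -0.45, and after quantile normalization the groups overlapped.

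Genes of lipid breakdown and sterol egress were lower by label at 4 of 6 (median log2 difference -0.30, and -0.29 after quantile normalization), and none passed the adjusted threshold. Npc2, the soluble protein that hands cholesterol to NPC1, had 97.6 and 41.9 on knockout 1 and knockout 2, against 40.2 and 97.3 on heterozygous 1 and heterozygous 2. As for Gusb, knockout 1 went with heterozygous 2, and the labelled difference was 0.03 with a standard error of 0.62. Npc1, the membrane protein of the same pathway, had 6.46 and 2.59 on the knockout arrays and 4.19 and 6.32 on the heterozygous arrays, a difference of -0.30. Asah1, acid ceramidase, had 42.5 and 26.8 against 21.1 and 46.5 (0.10). Knockout 1 and heterozygous 2 were the upper arrays for all 3.

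Lipa, the lysosomal acid lipase that frees cholesterol and fatty acids from lipoprotein lipids, had 69.9 and 41.4 on the knockout arrays and 55.7 and 88.8 on the heterozygous arrays. Its difference was -0.38 with a standard error of 0.55, and all 3 of its probe sets lay on the same side. Psap, the precursor of the saposins that present sphingolipids to hydrolases, had 60.3 and 58.5 against 58.0 and 95.3 (-0.32). Ppt1, a palmitoyl-protein thioesterase, had 12.9 and 14.9 against 12.1 and 24.0 (-0.29). For Psap and Ppt1, 3 arrays lay close together and heterozygous 2 stood above them on the deposited values. After quantile normalization knockout 1 stood below the others, with 51.9 and 72.4 on the knockout arrays and 70.7 and 79.2 on the heterozygous arrays for Psap.

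Lysosomal membrane protein genes were lower by label at 4 of 4 (median log2 difference -0.29, and -0.29 after quantile normalization), and none passed the adjusted threshold. Lamp2, a glycoprotein of the lysosomal membrane with a part in chaperone-mediated autophagy, had 55.1 and 66.7 on the knockout arrays, against 69.6 and 101 on the heterozygous arrays. The groups did not overlap on either scaling, with 47.3 and 82.1 against 83.7 and 84.9 after quantile normalization. The means were 60.9 ± 8.18 for knockout and 85.5 ± 22.5 for heterozygous (SD, n = 2 each), and the log2 difference of -0.47 was smaller than its standard error of 0.51 (limma, adjusted p = 0.999868). With each array left out it ranged from -0.74 to -0.20. Its 3 other kept probe sets were also below 0, at -0.71, -0.23 and -0.02, but on the deposited values the labelled groups of all 3 overlapped. Counting Lamp2, 6 genes had groups that did not overlap and lower values on the knockout arrays after quantile normalization, where 11.0% of all kept probe sets did. The others were Ctsl, Tpp1, Glb1, Man2b1 and Lipa.

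Lamp1, the related membrane glycoprotein, had 123 and 162 on the knockout arrays and 161 and 202 on the heterozygous arrays (-0.35, standard error 0.44). Knockout 2 lay just above heterozygous 1. Mcoln1, the TRPML1 channel that releases calcium from lysosomes, had 10.7 and 12.5 against 12.1 and 15.3 (-0.23). Its other kept probe sets gave differences of -0.11 and, for the dimmest, 0.73. For the probe sets used of Lamp1, Lamp2 and Mcoln1 the lowest array was knockout 1. The other kept probe sets of Lamp2 were lowest on heterozygous 1 (41.8), knockout 2 (35.2) and knockout 1 (24.9). The dimmest probe set of Mcoln1 was lowest on heterozygous 2 (0.343). Scarb2, the LIMP-2 receptor that carries beta-glucocerebrosidase to lysosomes, had another order, with 46.2 and 20.0 on the knockout arrays and 17.8 and 62.5 on the heterozygous arrays (-0.13, standard error 0.69). Its second kept probe set, with 42.8 and 26.2 against 18.4 and 45.5, gave a difference of 0.21.

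**Figure D3:**
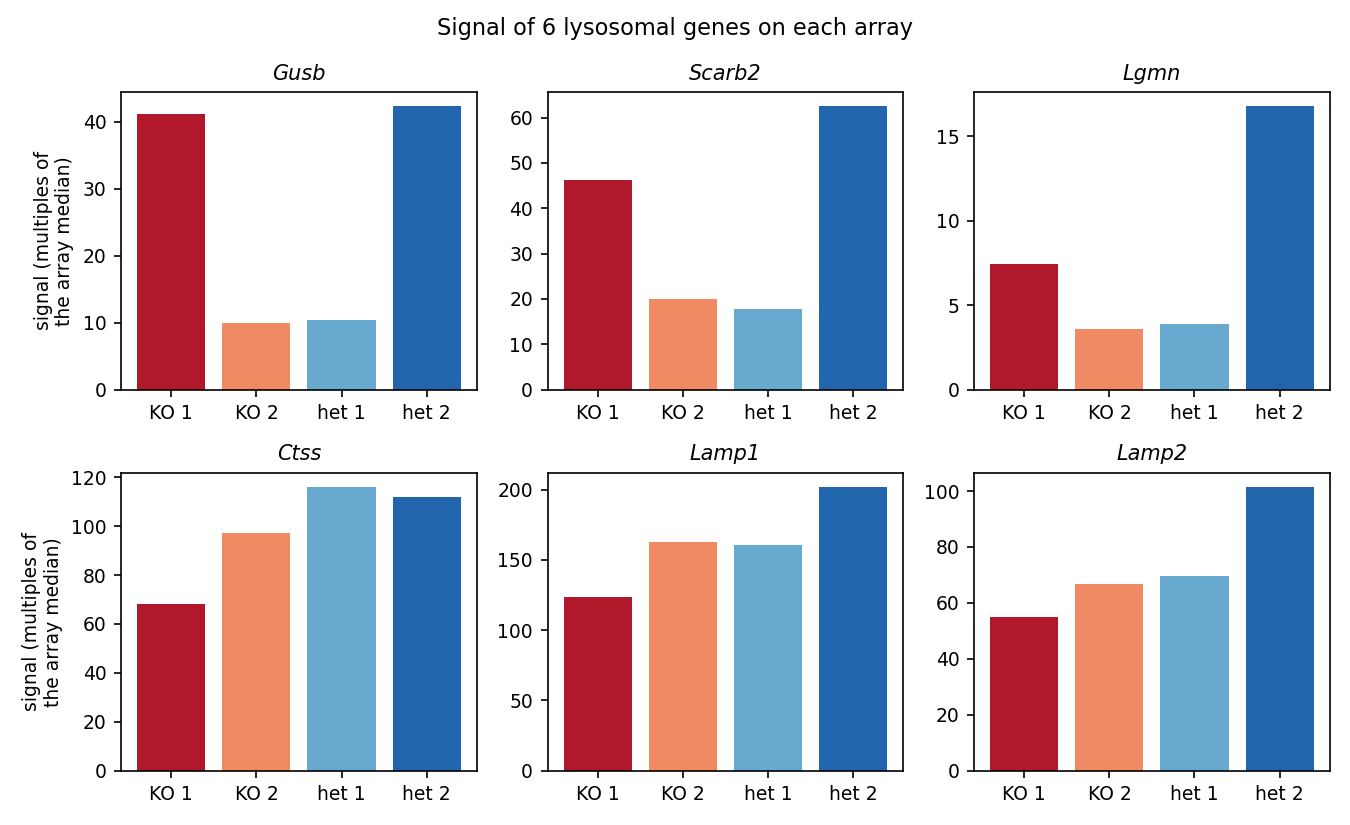
Signal (vertical axis, multiples of the array median, from 0) of Gusb, Scarb2, Lgmn, Ctss, Lamp1 and Lamp2 on knockout 1, knockout 2, heterozygous 1 and heterozygous 2. Gusb stood at 41.1 and 42.3 on knockout 1 and heterozygous 2 and at 9.99 and 10.4 on knockout 2 and heterozygous 1. The probe sets drawn for Lamp1 and Lamp2 were lowest on knockout 1.

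Tfeb had signals of 0.668 and 2.12 on knockout 1 and knockout 2, against 0.870 and 1.59 on heterozygous 1 and heterozygous 2. Both arrays numbered 2 were the higher ones, and the labelled difference was 0.04 with a standard error of 0.53. These signals lay near the array median. Of 6 kept genes of the TFE family and its regulators, 3 were lower by label (median 0.02). Rragd, a Rag GTPase that recruits mTORC1 and TFE factors to lysosomes, had 50.2 and 34.2 on the knockout arrays and 38.0 and 69.4 on the heterozygous arrays. Rragc, a related GTPase, had 33.8 and 16.9 against 18.7 and 30.6. The groups of both overlapped, while those of Fnip1, a partner of folliculin, did not, at 7.49 and 6.66 on the knockout arrays, against 7.80 and 12.9 on the heterozygous arrays (-0.49).

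Over the 31 genes, the median difference within each replicate number ran in opposite directions on the deposited values, but not after quantile normalization. Knockout 1 was higher than heterozygous 1 at 23 of the 31 genes, near the 68.8% of all kept probe sets. The median log2 difference was 0.45, against 0.36 over all kept probe sets. Knockout 2 was lower than heterozygous 2 at 28 genes, where 75.1% of all kept probe sets were. The median was -0.79, against -0.37 over all kept probe sets. Membrane protein genes had medians below 0 in both pairs (-0.26 and -0.46). With 1 array a group in each pair, neither difference has a test. After quantile normalization, knockout 1 was higher at 13 genes (median -0.08, against 0.03 over all) and knockout 2 was lower at 23 (median -0.22, against -0.02 over all). Of all kept probe sets, 51.9% and 51.5% were so.

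Arrays of the same label differed from each other as well. Within the knockout label, knockout 1 lay above knockout 2 at 22 of the 31 genes on the deposited values, near the 67.7% of all kept probe sets, and at 13 after quantile normalization, against 51.3% of all. Within the heterozygous label, heterozygous 2 lay above heterozygous 1 at 30 of the 31 genes and, after quantile normalization, at 26, with a median log2 gap of 0.89 and 0.36, against 0.40 and 0.03 over all kept probe sets. Between the arrays with little Ap1m2 signal, knockout 1 minus heterozygous 2 had a median of -0.51 (-0.48 after quantile normalization), with heterozygous 2 higher at 27 genes and, after quantile normalization, at 26. Between the other two, knockout 2 minus heterozygous 1 had a median of 0.02 on either scaling.

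**Figure D4:**
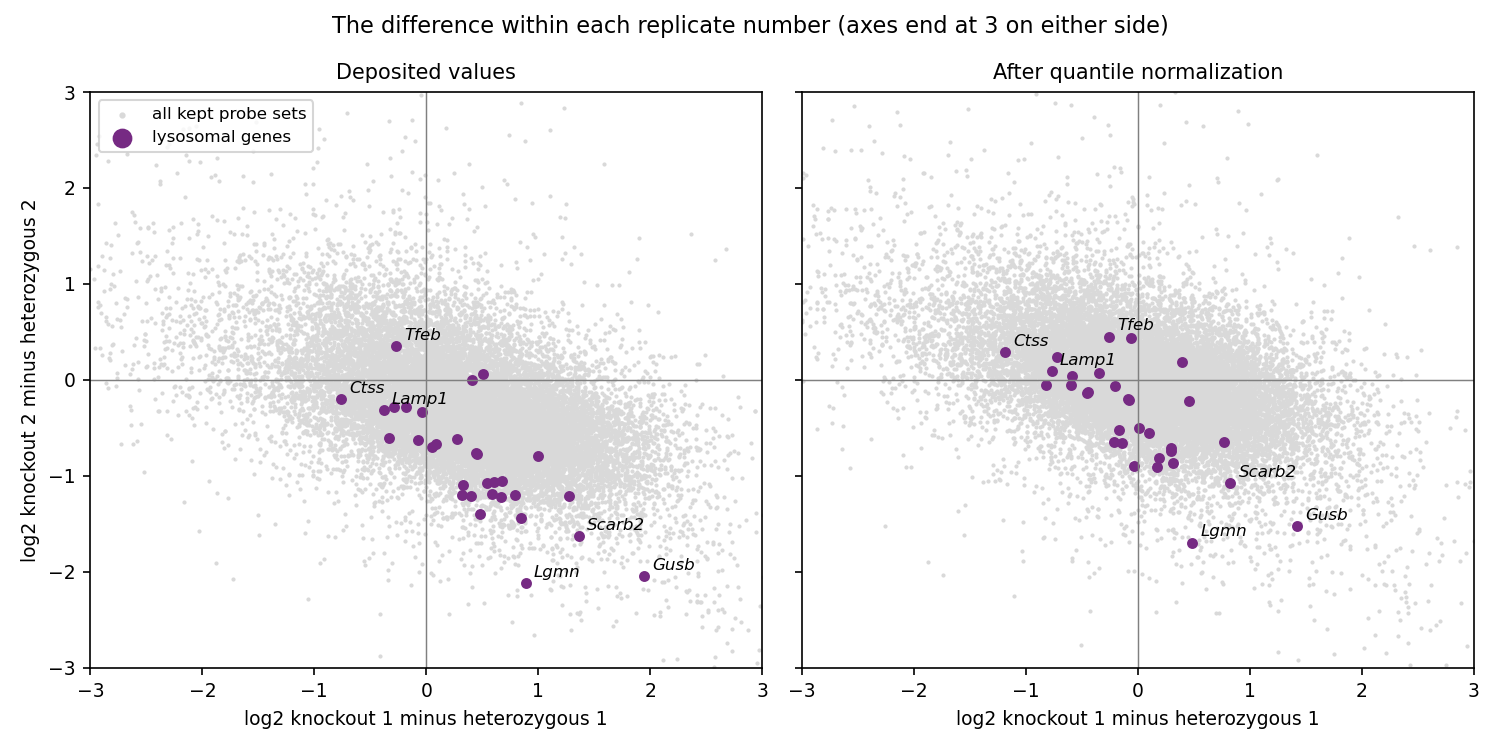
Log2 difference knockout 1 minus heterozygous 1 (horizontal axis) against knockout 2 minus heterozygous 2 (vertical axis) for 31 lysosomal genes (purple) over all kept probe sets (grey), on deposited values (left) and after quantile normalization (right). The axes stop at 3 on either side, and points beyond are not drawn. On the left, 23 genes lie right of 0 and 28 lie below 0, with Gusb farthest to the right. Of all kept probe sets, 68.8% lie right of 0 and 75.1% lie below 0 there.

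The promoters of some of these genes held a sequence feature that was not used to choose them. The CLEAR element is known from lysosomal genes, so its share among these genes is a description and no independent result. RefSeq promoter windows (GRCm38.p6, 250 bases before to 50 after each gene's start) were given for 29 of the 33 genes. The E-box CACGTG, which reads the same on both strands, was present in the windows of 12 of the 29 (41.4%), against 8.09% of 27025 genes with a window. The CLEAR core, searched as TCACGTG on either strand and so always containing that E-box, was present for 10 of the 29 (34.5%), against 4.29% of all genes. By window, and not by gene, the shares were 29.4% and 3.77%. Among 11 V-ATPase subunit genes with a window, 4 held the core (36.4%). Ctsl and Ctsf held the E-box without the core.

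The windows of the 10 genes are shown around the E-box, which stands in capitals, to let the flanks be compared. Each runs 5′ to 3′ on the strand of the gene. For Ctsd and Gla, which held 2 separate matches, the one nearer the start is shown.
Lamp1 (chr8:13159088-13159163, plus strand): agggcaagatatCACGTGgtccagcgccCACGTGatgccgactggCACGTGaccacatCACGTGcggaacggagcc
Mcoln1 (chr8:3500436-3500491, plus strand): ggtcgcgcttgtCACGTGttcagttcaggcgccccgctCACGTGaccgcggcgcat
Ctsa (chr2:164833749-164833795, plus strand): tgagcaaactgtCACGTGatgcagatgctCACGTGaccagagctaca
Ctsd (chr7:142387908-142387937, minus strand): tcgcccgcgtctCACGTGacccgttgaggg
Lgmn (chr12:102439124-102439153, minus strand): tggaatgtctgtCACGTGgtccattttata
Glb1 (chr9:114401018-114401047, plus strand): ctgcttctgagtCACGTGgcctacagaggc
Gaa (chr11:119267811-119267840, plus strand): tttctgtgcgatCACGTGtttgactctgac
Gla (chrX:134601182-134601211, minus strand): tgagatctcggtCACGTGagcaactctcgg
Naglu (chr11:101070009-101070038, plus strand): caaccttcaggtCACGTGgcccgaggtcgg
Sgsh (chr11:119355522-119355551, minus strand): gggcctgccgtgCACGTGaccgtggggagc

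Lamp1 held 4 matches within 76 bases, and Mcoln1 and Ctsa held 2 each. A match describes the letters only, and no binding was measured. The signals of genes with and without the core overlapped. The 10 genes with it had a median log2 difference of -0.28 (range -0.61 to 0.29, 9 of 10 lower by label), and 17 kept genes whose window lacked it had a median of -0.19 (range -0.48 to 0.21, 14 of 17 lower). Gusb and Scarb2, which with Lgmn had the widest spans over the arrays, had no match in their windows.

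Other genes of the lysosome, taken from 5 further lists, lay to the same side but closer to 0. Of 70 kept genes, 57 had a log2 difference below 0, with a median of -0.17, and 0 passed the adjusted threshold. Groups did not overlap for 8 of the 70, all lower by label, where 10.7% of all kept probe sets were so. Heterozygous 2 was the highest array for 55 of the 70, and after quantile normalization for 35.

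Further hydrolases and cofactors were lower by label at 18 of 19 (median -0.23). Fuca1, alpha-fucosidase, had 109 and 108 on the knockout arrays and 96.5 and 156 on the heterozygous arrays. Its groups overlapped, while 4 genes had groups that did not. Arsa, arylsulfatase A, had 9.95 and 11.0 on the knockout arrays, against 13.1 and 23.8 on the heterozygous arrays (-0.74). Siae, a sialic acid esterase, had 6.03 and 9.96 against 11.3 and 16.6 (-0.80). Sumf1, which activates sulfatases, had 9.77 and 13.2 against 15.5 and 16.3 (-0.47), with overlap after quantile normalization. The fourth, Acp5, the tartrate-resistant acid phosphatase, had 57.1 and 55.7 against 58.3 and 88.1 (-0.34).

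The V-ATPase, the pump that acidifies the lysosome, showed opposite differences in the pairs of same-numbered arrays. Knockout 1 was higher than heterozygous 1 at all 15 of its kept genes and knockout 2 was lower than heterozygous 2 at all 15, on the deposited values, and at 11 and 13 after quantile normalization. Of all kept probe sets, 68.8% were higher in the first pair and 75.1% lower in the second, and 51.9% and 51.5% after quantile normalization. Atp6ap2, an accessory subunit, had 159 and 74.5 on the knockout arrays and 86.7 and 156 on the heterozygous arrays. Atp6v0e, a membrane-sector subunit, had 77.8 and 61.6 against 63.6 and 107. By label 13 of the 15 were lower, with a median of -0.14 and no difference below -0.27.

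Other lysosomal membrane proteins were lower at 13 of 15 (median -0.20). Cd164, a sialomucin, had 87.7 and 78.8 on the knockout arrays and 81.1 and 105 on the heterozygous arrays. Lamtor1, the anchor of the Ragulator complex, had 124 and 57.3 against 59.8 and 106. The labelled groups of both overlapped. Those of Mfsd8 did not, at 2.36 and 2.90 on the knockout arrays, against 4.09 and 4.09 on the heterozygous arrays (-0.59). Those of Slc38a9, an arginine-sensing transporter gene, were also apart, at 2.40 and 3.23 against 3.52 and 3.70 (-0.34), but overlapped after quantile normalization. Genes of sorting to lysosomes were lower at 10 of 15 (median -0.11). Among them M6pr, the cation-dependent mannose 6-phosphate receptor, had 64.7 and 43.7 on the knockout arrays and 35.1 and 74.8 on the heterozygous arrays (0.05). Vps35, a retromer subunit, had 103 and 50.7 against 54.5 and 92.0 (0.03), and Vps41, of the HOPS tethering complex, had 19.4 and 15.2 against 20.0 and 23.6, with no overlap (-0.33). Knockout 1 and heterozygous 2 were the upper arrays for M6pr and Vps35.

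The arrays also differed in cell markers, and the lysosomal values are set beside them without a test of their part. Enterocyte markers were present on all 4 arrays, with Fabp1, the fatty acid binding protein, at 910.4 and 582 on the knockout arrays and 707 and 769.5 on the heterozygous arrays. Fabp1 went against most of its list. Of 14 kept enterocyte genes, 2 were highest on knockout 1, Fabp1 among them, and 9 were lowest there. The median deviation of the enterocyte genes from the 4-array mean was lowest on knockout 1 (log2 -0.92). On the other arrays it was 0.35 on knockout 2, 0.36 on heterozygous 1 and 0.17 on heterozygous 2. Of the 31 lysosomal genes, 8 were lowest on knockout 1 by the probe sets used, against 21.1% of all kept probe sets. Lamp1, Lamp2, Mcoln1 and Ctss were among them. After quantile normalization 14 of the 31 were lowest there, and 13 of the 14 enterocyte genes. That share was not computed over all kept probe sets. The median deviation of the 31 genes on knockout 1 was 0.13, and -0.12 after quantile normalization.

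Proliferation genes stood highest on knockout 1 at all 13 kept members, with Pcna, the DNA polymerase clamp, at 197 and 70.4 on the knockout arrays, against 74.0 and 121 on the heterozygous arrays. T cell markers had a summed signal, over 10 kept genes, of 14.3 and 298 on knockout 1 and knockout 2, against 490 and 98.3 on heterozygous 1 and heterozygous 2. Gzma, granzyme A, had 5.79 and 149 on the knockout arrays, against 244 and 53.8 on the heterozygous arrays. The 14 myeloid genes, which include the lysosomal genes Cd68 and Laptm5, were highest on heterozygous 1 at 13. For Lyz2, lysozyme of myeloid cells, the values were 20.8 and 15.6 against 42.0 and 18.1, and for Csf1r, the macrophage growth factor receptor, 3.89 and 8.19 against 22.7 and 3.26. No measured gene of these lists was listed at 0 on any array, and Cd2 and Itgam were dim. Goblet cell genes had their highest summed signal on heterozygous 2, with 1191 and 999 on the knockout arrays and 1220 and 1317 on the heterozygous arrays over 6 kept genes. Pancreatic acinar genes stood highest on knockout 2, with 3.46 and 89.8 on the knockout arrays and 2.63 and 19.1 on the heterozygous arrays over 7 kept genes.

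**Figure D5:**
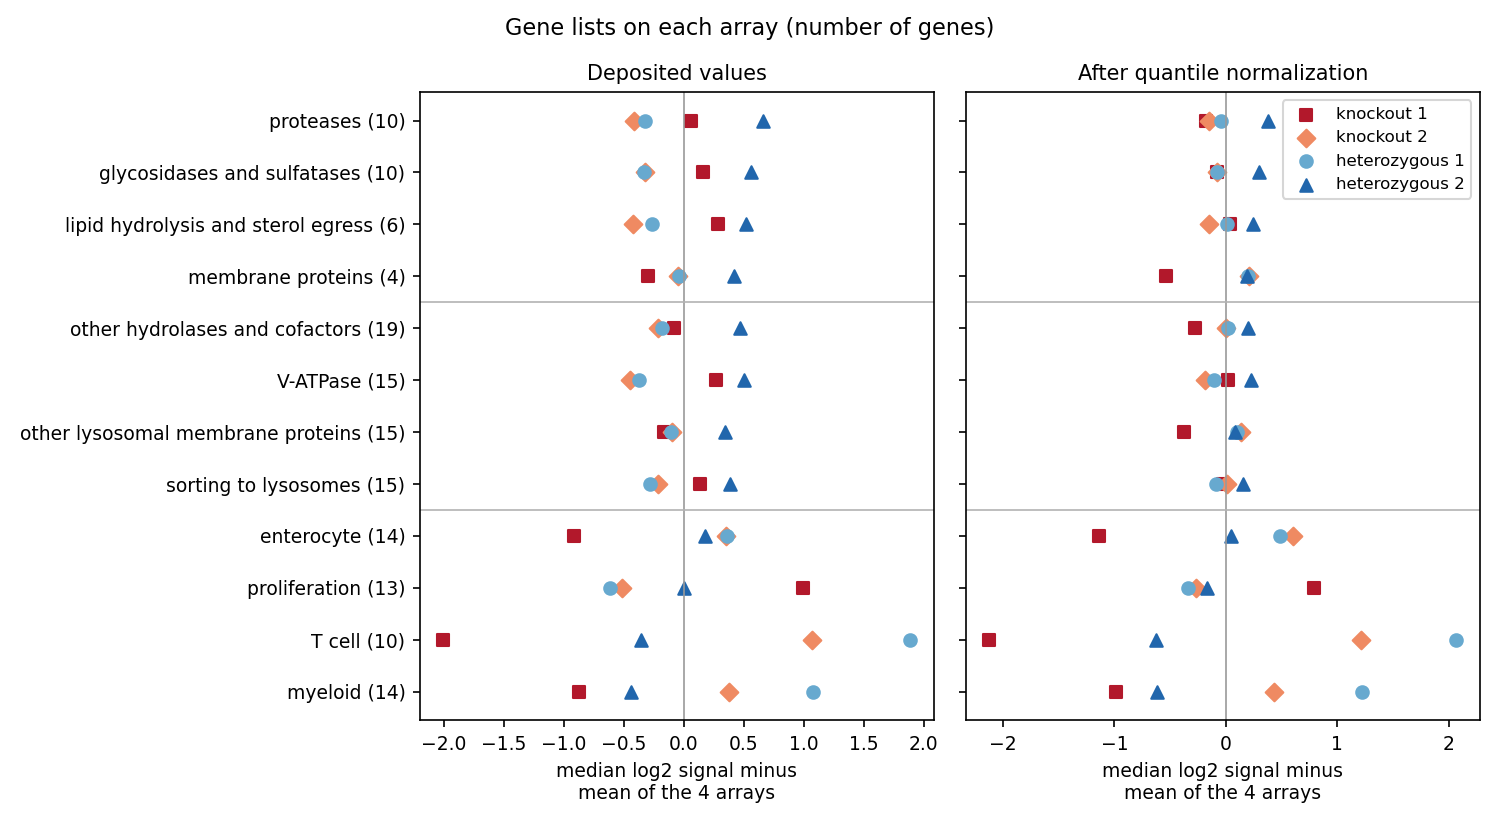
Median over each gene list (rows, number of genes in brackets) of the log2 signal minus the mean of the 4 arrays (horizontal axis), per array, on deposited values (left) and after quantile normalization (right). Grey lines part the lysosomal genes described first, other lysosome lists and markers of cell types. On the left, each of the 8 lysosomal lists drawn stands highest on heterozygous 2. There the T cell list spans from -2.01 on knockout 1 to 1.89 on heterozygous 1. On the right, membrane proteins (0.21, against 0.19 on heterozygous 2) and other lysosomal membrane proteins (0.14, against 0.08) stand highest on knockout 2.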

How the data were processed

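Per the submitters' processing notes, the deposited intensity values came from MAS5 (version not given in the sources used here). They are on a linear scale, 1 value per probe set and array. The array medians lay between 0.996 and 0.998, so the authors had rescaled each array, a step seen in the deposited intensity values and not stated in the labels. The table had 45037 probe sets. The annotation paired with it named 1 gene for 34945, several for 932 and none for 9160. Entrez identifiers of all 32 measured genes were found in RefSeq (GRCm38.p6). No pair of arrays shared more than 0.144% of values, so all counted as separate samples.

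Values were transformed as log2(value + 0.321), the pseudocount being the 25th percentile of all values, so fold differences of dim genes are understated. Of all probe sets, 22519 with a mean at or above the median of means were kept. The comparison used limma, version 3.58.1, under R 4.3.3, with lmFit, a trended eBayes and Benjamini-Hochberg adjustment. It was also run on simulated arrays with known changes and independent noise smaller than the spread of these arrays. That run checks the sign and size of the estimates, and not the power to find changes in these data. With 2 arrays a group, the smallest two-sided p of an exact permutation test is 0.333, so none was run. Precision is limited by the number of arrays, and no detection calls were used.

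All genes are accounted for. Values on every array are given, per role, for the gene with the highest mean, the widest span and non-overlapping groups, and for others where they show an order of arrays. Levels of different probe sets were not compared. The genes and lists were chosen with earlier results of these data known. Same-numbered arrays were tried as a block. Crossed pairs and single pairs of arrays were added after seeing the data.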

Additional observations from a re-analysis of the deposited data

Results flagged for a closer look

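The difference between knockout and heterozygous arrays ran one way for replicate number 1 and the other way for number 2, on the deposited values, for the median of the 31 lysosomal genes and, by at least 2-fold each way, for Gusb, Scarb2 and Npc2. The median log2 difference was 0.45 for knockout 1 minus heterozygous 1 and -0.79 for knockout 2 minus heterozygous 2. Over all kept probe sets these medians were 0.36 and -0.37. Gusb had 1.94 and -2.05 in the same order, Scarb2 had 1.36 and -1.63, and Npc2 had 1.27 and -1.21. Of all kept probe sets, 4.45% were at least 2-fold higher in the first pair and lower in the second, and 1.65% after quantile normalization. After it the median was -0.08 and -0.22, both below 0, Gusb had 1.42 and -1.52, Scarb2 had 0.83 and -1.07, and Npc2 had 0.77 and -0.65. Each pair holds 1 array a label, so the difference between the pairs was not tested. The replicate number went with the sex pattern, so those cannot be told apart here. Ap1m2 was low on knockout 1 and heterozygous 2, a split of the arrays that follows neither the label nor the replicate number. Gusb, Scarb2 and Npc2 were high on knockout 1 and heterozygous 2, the same split. The brightness of whole arrays split them in the same way. The 75th percentile of signal was 5.57 and 5.54 on knockout 1 and heterozygous 2, against 4.27 and 4.13 on knockout 2 and heterozygous 1. A labelled difference that depends on the replicate number gives this split too, and what lies behind it was not tested.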

How the results depend on the processing

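None of the 31 genes passed the adjusted threshold under any setting (limma), and at an unadjusted p under 0.05 there was 1, without heterozygous 1. No gene changed sign with other pseudocounts, filters, scalings or variance fits. With the replicate number as a block, 26 genes were lower and the median stayed at -0.27, with 0 calls. Crossed pairs as a block (same-numbered arrays correlated at -0.51) also gave 0. Over all probe sets, leaving out 1 array gave 0 to 56 higher and 0 to 184 lower calls, and the brightest 25% gave 1 lower. Groups did not overlap at 3 genes among the brightest 25%, 8 with median centring, 3 with all kept probe sets averaged per gene and 12 to 28 with 1 array left out, where a lone array overlaps less. The share over all probe sets was not computed under these settings, so these counts show nothing particular to the lysosomal genes. Genes lower by label numbered 8 to 29 with 1 array left out and 8 for knockout 1 against heterozygous 1. Those counts use deposited values, on which whole arrays differed in brightness. That pair gave medians of 0.45 for all genes, 0.36 for proteases and 0.46 for lipid genes. Knockout 2 against heterozygous 2 gave -1.06 for proteases, -0.92 for glycosidases and sulfatases and -0.94 for lipid genes. Of 20 genes with 2 or more kept probe sets, 11 had all of them on one side. Beyond the probe sets used, 21 of 30 kept ones had the same sign as the one used. With the mean of all kept probe sets, 5 genes changed sign, to 0.016 for Neu1, -0.12 for Arsb, -0.11 for Npc2, 0.037 for Scarb2 and 0.13 for Mcoln1. With 1 array left out, 22 genes changed sign at least once. The ranges were -0.82 to 0.12 for Ctsa, -0.50 to 0.15 for Ctsc, -0.83 to 0.29 for Ctsd, -1.05 to 0.47 for Ctsh, -0.89 to 0.012 for Ctsl, -0.63 to 0.26 for Ctsz, -1.63 to 0.40 for Lgmn and -0.97 to 0.16 for Tpp1. They were -1.02 to 0.11 for Glb1, -0.55 to 0.25 for Hexa, -0.81 to 0.41 for Gaa, -0.78 to 0.22 for Gla, -1.05 to 0.95 for Gusb, -0.84 to 0.38 for Neu1 and -0.55 to 0.23 for Man2b1. They were -0.46 to 0.67 for Asah1, -0.78 to 0.19 for Ppt1, -0.68 to 0.033 for Psap, -0.91 to 0.31 for Npc1, -0.60 to 0.67 for Npc2, -1.03 to 0.76 for Scarb2 and -0.61 to 0.70 for Tfeb. The cause was not tested. Leaving out heterozygous 2 turned 18 of them, knockout 2 10, heterozygous 1 3 and knockout 1 2.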

Other observations

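Of 5 listed genes of apical endocytosis, which feeds enterocyte lysosomes, 3 were kept, and all 3 were lower by label (median log2 difference -0.66). Cubn, the multiligand receptor cubilin, had 0.501 and 13.8 on knockout 1 and knockout 2, against 18.9 and 1.64 on heterozygous 1 and heterozygous 2. Knockout 1 and heterozygous 2, on which Gusb, Npc2 and Scarb2 were high, were thus the low arrays for Cubn, which was named after its values were seen. Amn, the amnionless partner of cubilin, had 20.9 and 33.3 on the knockout arrays, against 36.9 and 47.3 on the heterozygous arrays, with no overlap, though with overlap after quantile normalization (log2 difference -0.66, limma adjusted p = 0.999868). Fcgrt, the neonatal Fc receptor that protects immunoglobulin G from lysosomes, had 51.0 and 37.0 against 33.2 and 79.5, in the order seen for Ctsh and Ctsd.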
